A study of Mus musculus with 24 samples.

Results

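The genes that build the cornified envelope and mark the differentiated layers of the epidermis were followed in RNA sequencing libraries of whole mouse back skin. They were chosen by name, with earlier results of these data known: every late cornified envelope (Lce) and small proline-rich (Sprr) gene whose symbol goes on with a digit, and 18 further genes of the upper epidermis. This gave 50 genes of the 29758 gene symbols with an exon row in the deposited count table. The naming rule itself uses no measured value, except that of several rows with the same symbol the one with the highest total was kept. All groups were wild type male C57BL/6NCrl mice of 8 weeks, under lights that came on at ZT0 and went off at ZT12, and their back skin was taken in telogen, when hair follicles rest. For 18 to 21 days they could eat only in a daily window, which ran from ZT0 to ZT4 in the group named ED, from ZT5 to ZT9 in MD and from ZT12 to ZT16 in EN. Each group had 8 libraries, at ZT0, ZT4 and so on to ZT28, and each library was made from RNA pooled from 2 to 4 mice. No group had free access to food. Each group was sampled with a single pool at any time, so the error of every test is the spread of the 24 pools about a fitted model. Nothing in the labels says whether pools share animals. The p-values therefore rest on how far pools scatter, part of which may be technical.

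Keratinocytes leave the basal layer, change their keratins to KRT1 and KRT10 in the spinous layer, and in the granular layer make filaggrin, loricrin, involucrin and the Lce and Sprr proteins. Transglutaminases cross-link these proteins under the cell membrane into the cornified envelope, the protein shell of the dead cells at the surface. Many of the genes lie side by side in one cluster, the epidermal differentiation complex. Here 38 of the 50 lay on chromosome 3 between 92080271 and 93399442 (mm10; positions from the GRCm38.p6 annotation, the same sequence), from Lor to Rptn. Each of the 18 Lce genes and 13 of the 14 Sprr genes had all coding bases in 1 exon. Dmkn, Sbsn and Krtdap formed a second block on chromosome 7, from 30751471 to 30791097.

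The 150 bases before the start given in the RefSeq promoter table (GRCm38.p6) are shown for 6 members whose mean level over the day differed between feeding groups, because the series concerns timed expression and these windows are where a clock or differentiation factor could bind. They are written 5′ to 3′ on the gene's strand. Capitals mark the TATA box word TATAAA and the AP-1-like word TGANTCA, in which N is any base.
Lor (chr3:92083143-92083292, minus strand): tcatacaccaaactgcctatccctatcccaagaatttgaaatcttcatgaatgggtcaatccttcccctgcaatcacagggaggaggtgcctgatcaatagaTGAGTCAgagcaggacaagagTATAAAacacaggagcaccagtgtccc
Lce1c (chr3:92679097-92679246, plus strand): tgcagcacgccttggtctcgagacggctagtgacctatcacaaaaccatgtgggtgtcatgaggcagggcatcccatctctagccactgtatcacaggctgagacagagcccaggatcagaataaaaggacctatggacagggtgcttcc
Lce1d (chr3:92687211-92687360, minus strand): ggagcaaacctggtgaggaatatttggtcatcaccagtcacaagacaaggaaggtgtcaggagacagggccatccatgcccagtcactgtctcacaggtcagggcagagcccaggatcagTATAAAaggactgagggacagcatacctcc
Lce1k (chr3:92807892-92808041, minus strand): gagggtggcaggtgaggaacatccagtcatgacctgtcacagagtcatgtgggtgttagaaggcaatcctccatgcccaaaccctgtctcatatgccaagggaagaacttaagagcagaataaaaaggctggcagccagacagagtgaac
Flg (chr3:93273396-93273545, plus strand): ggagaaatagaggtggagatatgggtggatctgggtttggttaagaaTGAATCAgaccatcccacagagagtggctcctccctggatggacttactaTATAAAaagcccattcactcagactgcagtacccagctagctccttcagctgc
Hrnr (chr3:93319599-93319748, plus strand): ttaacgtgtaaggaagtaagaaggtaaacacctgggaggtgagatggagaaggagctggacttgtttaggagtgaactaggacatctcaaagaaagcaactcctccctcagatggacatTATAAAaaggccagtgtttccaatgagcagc

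These words and the E-box word, none of which contains another, were searched for on both strands in windows of 300 bases (250 before and 50 after the start), for the 44 members with an entry among 27025 promoters. TATAAA stood in 21 of 44 member windows (47.7%), against 14.2% of all promoters. TGANTCA stood in 17 of 44 (38.6%), against 7.9% of all. CACGTG, the E-box word that the clock factors CLOCK and BMAL1 can bind, stood in 1 of 44, the window of Lce3a (2.3%), against 7.2% of all. A match is a description of these letters and not a binding site, and neighbouring copies of 1 gene family share much of their sequence.

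Between 13091600 and 26052600 exon reads were counted per library, and the 50 genes took 0.993% to 1.32% of them. Their summed level was 10431 to 13127 CPM (counts scaled to the library total, with TMM factors) across the 24 libraries, a 1.26-fold range. Of the 50 genes, 36 passed the filter on low counts, as did 15719 genes in all. The 14 that did not pass were Lce3a, Lce3b, Lce3f, Sprr3 and the 10 Sprr2 genes. Sprr3 had 0 counts in all libraries, which allows up to 3 counts in each, and the 10 Sprr2 genes together had 237 counts over the 24 libraries. The libraries ED ZT24 and EN ZT0 stood apart in markers of growing hair: 7 genes of the hair sheath and shaft summed to 997 and 2742 CPM there and to at most 70.0 CPM in the other libraries, although all skin is labelled telogen. Results were recomputed without both.

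Per length, the structural proteins of the spinous and granular layers led. Krt10, the keratin partner of KRT1, had the highest level at 870 ± 63.4 RPKM (mean and SD over 24 libraries, as deposited). It was followed by Dmkn (dermokine, 563 ± 54.1), Sbsn (suprabasin, 502 ± 33.8) and Flg2 (filaggrin-2, 490 ± 35.8). Krtdap, a secreted peptide of differentiating keratinocytes, stood at 372 ± 53.1. Then came Lor (loricrin, the main envelope protein) at 257 ± 33.2, Krt1 at 256 ± 56.6 and Dsg1a (desmoglein-1, a desmosomal cadherin) at 201 ± 11.2 RPKM. Sbsn and Flg2, and likewise Lor and Krt1, did not differ beyond their spread. Krt2, the keratin of the uppermost living layers in mouse ear and tail skin, had only 228 counts over all libraries and 0.236 ± 0.103 RPKM.

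Among the Lce genes, Lce1m led at 123 ± 26.7 RPKM and held 52.5% of the counts of the 13 Lce1 genes. Lce1a2 followed at 21.8 ± 3.10 RPKM, and the Lce3 genes, which are known to come on in wounded skin, were led by Lce3c with a mean of 0.392 RPKM and at most 0.750 in a library. Of the Sprr genes, Sprr1a had 30.6 ± 8.64 RPKM, Sprr4 3.85 ± 2.30 and Sprr1b 0.515 ± 0.378. Ivl (involucrin, an early envelope scaffold) had 35.9 ± 7.75, Flg (profilaggrin, which binds keratin filaments) 23.4 ± 7.01 and Hrnr (hornerin, its relative) 20.8 ± 2.11 RPKM. The enzymes ranged from Klk5, a protease that sheds surface cells, at 35.4 ± 3.44 to Tgm3, a transglutaminase of hair and epidermis, at 1.71 ± 0.737 RPKM, and Calml3, a calmodulin-like calcium sensor, stood at 62.0 ± 7.57. Flg and Hrnr consist largely of repeats and the Lce1 genes of near copies, and the sources used here do not give the treatment of reads that match several places.

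**Figure D1:**
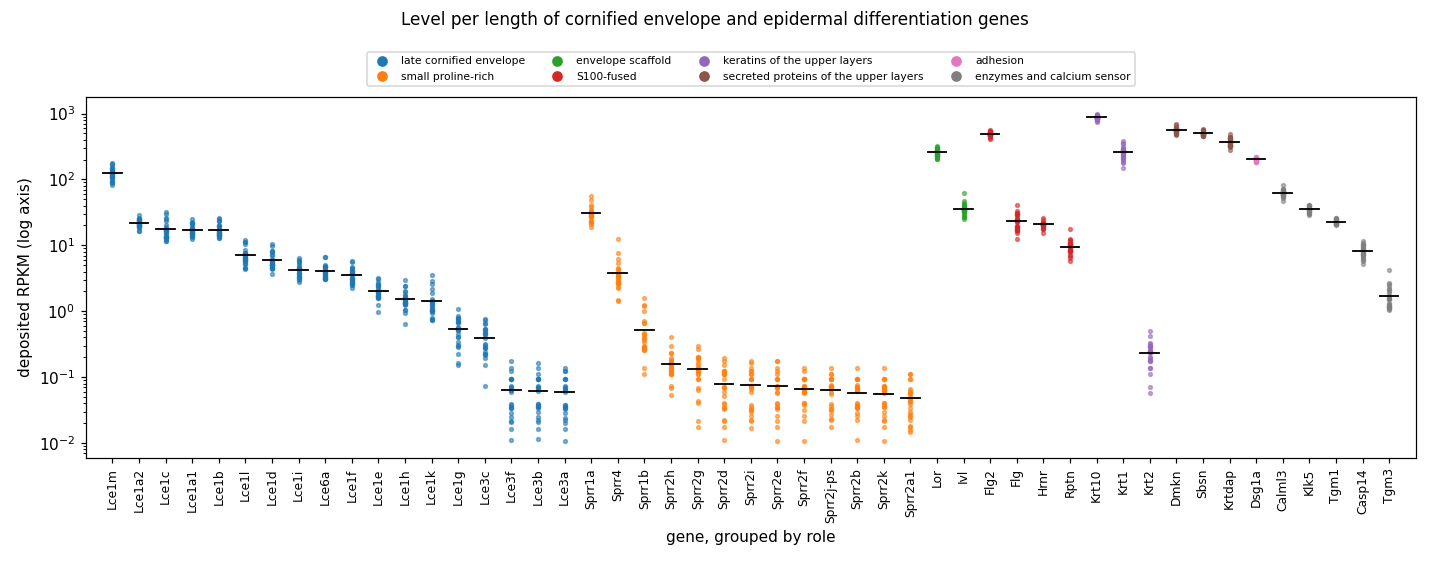
Deposited RPKM (log axis) of 49 genes, grouped by role, with 1 point per library (24 each) and a black bar at the mean; Sprr3, with 0 counts, is not drawn. Krt10 is the highest at 870 RPKM, and the means of the Sprr2 and Lce3 genes lie below 0.4 RPKM, with at most 24 counts in a library.

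The first question was whether these genes follow a daily rhythm, in any feeding group, by the light cycle or by the meal. The one call was Lce1k in MD. Each rhythm was fitted as a 24 h cosine to the 8 libraries of a group within 1 model of all 24, and tested with edgeR's quasi-likelihood test with Benjamini-Hochberg adjustment over 15719 genes. Of 36 members, 0 were called in ED (0.719% of all genes were), 1 in MD (0.942%) and 0 in EN (1.06%). At an unadjusted p under 0.05 there was 1 member in ED (14.9% of all genes were), there were 6 in MD (15.7%) and 0 in EN (10.8%). DESeq2 called 0 members in ED (2.47% of all genes), 2 in MD (3.14%) and 0 in EN (2.21%). A rhythm common to the groups was called for 0 members by ZT (0.668% of all genes) and for 0 by hours since food opened (1.29%). At an unadjusted p under 0.05 these tests had 3 members (14.7% of all genes) and 6 (15.6%), and DESeq2 called 0 (2.11%) and 0 (3.11%). A rhythm that differed between groups was called for 0 members by ZT (0.999%) and 0 by food time (1.32%). Here 2 members (14.4% of all genes) and 2 (14%) had an unadjusted p under 0.05, and DESeq2 called 2 (3.85%) and 0 (3.77%).

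The fitted amplitudes, from mean to peak on the log2 scale, had a median over the members of 0.16 for ED, 0.22 for MD and 0.14 for EN. Over all genes tested the medians were 0.15, 0.15 and 0.13. Of 10 genes of the clock fitted the same way, 9, 9 and 10 were called, with median amplitudes of 1.06, 1.10 and 1.46. Among the 11 members with a mean of at least 100 CPM, the largest amplitude was 0.35 ± 0.17 in ED (Krt1; estimate ± standard error, as for all fitted values here), 0.29 ± 0.09 in MD (Lce1m) and 0.18 ± 0.09 in EN (Krtdap). In simulated counts with these depths, a rhythm by ZT was put into all groups, for genes with a mean above 1 CPM. The test for ED recovered it for 66% of 100 genes at amplitude 0.5 and for 95% at amplitude 1 (15654 genes tested). The same genes also carried a shift of 0.5 or 1 (log2) in MD.

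**Figure D2:**
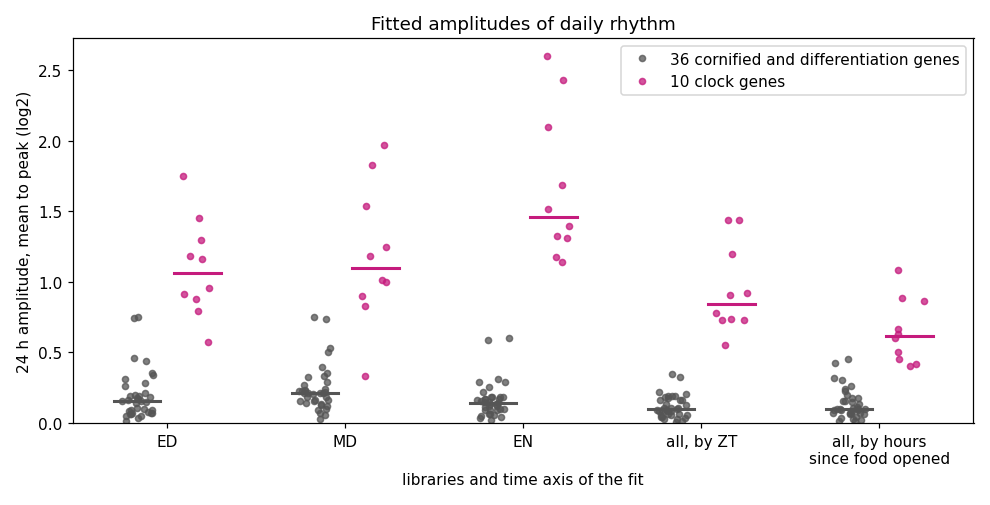
Fitted 24 h amplitude (log2, mean to peak) of the 36 members that passed the filter and of 10 clock genes, in each group and for a rhythm shared by all groups by ZT or by hours since food opened; 1 point per gene, with a bar at the median. In ED, MD and EN the members' medians are 0.16, 0.22 and 0.14 and those of the clock genes 1.06, 1.10 and 1.46.

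The one rhythmic member was Lce1k in MD. Its level from ZT0 to ZT28 was 3.73, 5.51, 3.80, 2.44, 1.51, 2.65, 3.24 and 4.91 CPM. Both pools taken at ZT4 of the clock were the highest and ZT16 the lowest. The amplitude was 0.74 ± 0.13 with a peak at ZT 4.18 ± 0.678 h (edgeR adjusted p = 0.0223), beside 0.22 ± 0.12 in ED and 0.29 ± 0.13 in EN. The difference in rhythm between groups did not pass (adjusted p = 0.0596). The gene had 23 to 113 counts per library. Its call was lost without any one of MD ZT4 (adjusted p = 0.0958), MD ZT12 (0.0583), MD ZT16 (0.153) and MD ZT28 (0.0651), without the second day (0.0692) and when MD was fitted alone (0.124). Rptn (repetin, an S100-fused granular protein) came next in MD, with an amplitude of 0.53 ± 0.15 that did not pass (adjusted p = 0.0811).

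The pools taken at the same clock time on both days, 24 h apart, give the scatter without any time of day. The 6 such pairs had a median SD of 0.24 (log2 CPM) over the members, and the same genes had a median SD of 0.28 over all 24 libraries. The ratio of the second SD to the first had a median of 1.10 over the members and 1.18 over all genes, and for Dbp, a direct target of the clock, it was 6.31. The steadiest members over all 24 libraries were Sbsn (SD 0.10), Flg2 (0.11) and Dsg1a (0.12). The widest were Sprr1b (0.82), Lce3c (0.80), Krt2 (0.69) and Lce1g (0.63), which all had fewer than 60 counts in every library, and among members of at least 50 counts the widest was Tgm3 (0.53).

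**Figure D3:**
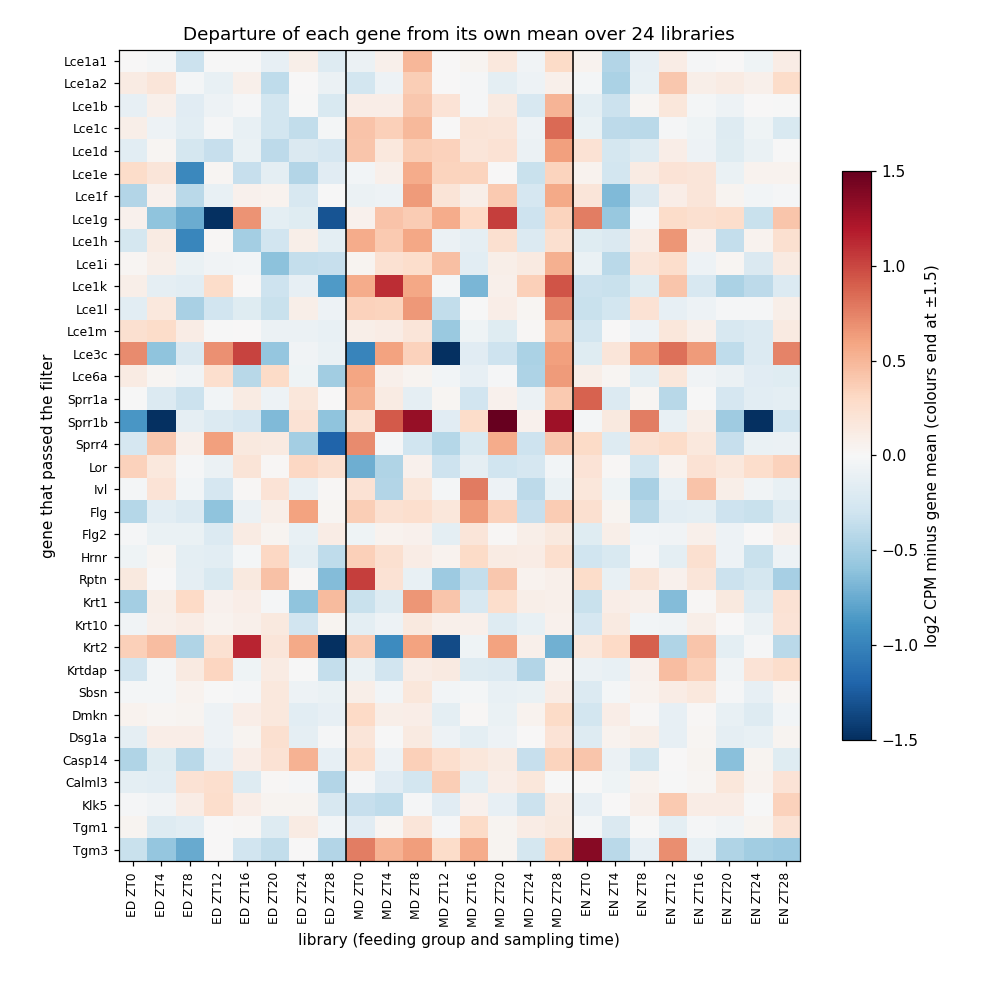
Departure of log2 CPM from the gene's own mean over 24 libraries, for the 36 members that passed the filter (rows, by role) in each library (columns, by feeding group and sampling time; vertical lines part the groups). Lor is mostly blue and the Lce1 genes mostly red in the MD columns and Krt10 and Sbsn are pale throughout.

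The second question was whether the mean level over the day differed between feeding groups. In MD, 6 Lce1 genes, Sprr1b, Flg and Hrnr were higher than in ED and Lor was lower. These 10 of 36 members are 27.8%, close to the 23.0% of all genes called in the same test. Of these, 9 were higher (11.2% of all genes were) and 1 was lower (11.8%). The median difference over the members was 0.10 and over all genes -0.01 on the log2 scale, and 26 of 36 were above 0. For no member did the 8 MD libraries lie wholly outside the 8 ED libraries, as they did for 1.37% of all genes. All adjusted p-values here are from edgeR's quasi-likelihood test with Benjamini-Hochberg adjustment.

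Lor (uc008qdk.1, chromosome 3, 92080271 to 92083142, minus strand), whose protein makes up most of the envelope's mass, was the one member called lower in MD than in ED. Its lowest, median and highest levels were 195, 234 and 262 CPM in ED, 124, 170 and 216 in MD and 171, 235 and 263 in EN. In MD, 6 of 8 pools lay below every ED pool. The difference was -0.36 ± 0.10 against ED (adjusted p = 0.0069), a 1.29-fold lower level. Without any one of the 24 libraries it stayed between -0.41 and -0.28 and kept its call. On the deposited RPKM values it was -0.28 (limma, adjusted p = 0.00429). Counts in the introns of Lor gave a larger difference, -0.66 ± 0.12 (adjusted p = 0.000518), from 21.9 ± 3.72 CPM in ED to 14.03 ± 1.97 in MD (SD, n = 8 each). Lower introns in MD were not particular to Lor. Those of Lce1m (-0.67 ± 0.17), Krt10 (-0.50 ± 0.08) and Krtdap (-0.42 ± 0.10), whose exon counts did not pass, were called lower too, and those of Tgm3 higher.

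Of the 13 Lce1 genes, which encode small glycine- and cysteine-rich proteins that are cross-linked late, 6 were called higher in MD than in ED and 0 lower. Lce1d (chromosome 3, 92685499 to 92687210) had the smallest p. It stood at 8.45, 9.46 and 11.4 CPM in ED (lowest, median, highest), at 10.5, 13.6 and 17.2 in MD and at 9.28, 10.5 and 13.03 in EN. Of 8 MD pools, 7 were above every ED pool, and the difference was 0.50 ± 0.10 (adjusted p = 0.00131). Lce1c ran from 24.9 to 34.1 CPM in ED with a median of 30.2, and from 30.5 to 58.1 in MD with a median of 38.9. Its difference was 0.39 ± 0.11 (adjusted p = 0.0058), with 6 of 8 MD pools above every ED pool. Both calls held without any one library.

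Lce1b (0.25 ± 0.09), Lce1g (0.86 ± 0.26), Lce1i (0.36 ± 0.11) and Lce1l (0.36 ± 0.12) were the other 4 called. Lce1b had a median of 29.4 CPM in ED and 34.2 in MD, Lce1i 7.19 and 8.67, and Lce1l 11.8 and 15.5. Lce1g rested on 3 to 39 counts per library, with medians of 0.651 and 1.15 CPM. The call of Lce1b was lost without ED ZT8, ED ZT12, ED ZT20 or MD ZT20 (adjusted p up to 0.0718), that of Lce1g without ED ZT12, ED ZT20 or MD ZT20 (up to 0.114) and that of Lce1l without ED ZT8, ED ZT20, MD ZT8 or MD ZT16 (up to 0.106). That of Lce1i was lost without ED ZT8, ED ZT12, ED ZT20, MD ZT12, MD ZT20 or MD ZT28 (up to 0.111).

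The most abundant Lce1 gene, Lce1m, did not share this, nor did the next, Lce1a2 (0.04 ± 0.11, adjusted p = 0.847). Lce1m had a median of 204 CPM in ED, 211 in MD and 200 in EN. Its difference between MD and ED was -0.08 ± 0.10. All 13 genes summed differed by 0.09 ± 0.08 (adjusted p = 0.406), from 383 ± 32.4 CPM in ED to 417 ± 67.2 in MD (SD, n = 8 each). The sum of the 12 genes without Lce1m, which was added after the data had been seen, differed by 0.27 ± 0.08 (adjusted p = 0.0171), from 172 ± 13.1 to 208 ± 30.6 CPM. Intron counts did not follow the exon counts: Lce1m introns were lower in MD (-0.67 ± 0.17, adjusted p = 0.0148) and those of Lce1c gave -0.40 ± 0.22 (adjusted p = 0.184).

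The Lce1 copies are alike enough that reads could be credited to the wrong one. Over the 78 pairs of the 13 coding sequences, identity ran from 49.0% to 95.7% with a median of 83.6%. The closest pair was Lce1c and Lce1f. Their first 90 coding bases are given to show how few letters part them, with the 6 mismatches in capitals.
Lce1c (chr3:92680268-92680357, plus strand): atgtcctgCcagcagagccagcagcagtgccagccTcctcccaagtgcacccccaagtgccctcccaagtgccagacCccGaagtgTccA
Lce1f (chr3:92719259-92719348, minus strand): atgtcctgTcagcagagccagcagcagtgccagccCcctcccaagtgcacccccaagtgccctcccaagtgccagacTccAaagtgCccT
Of all 50-base words of a transcript, up to 27.1% also stood in another gene for the Lce1 genes (Lce1i), 24.0% for Lce1c, 25.4% for Lce1d and 0.0% for Lce1m. Lce1f, the nearest copy of Lce1c by coding identity, gave 0.32 ± 0.14 and did not pass (adjusted p = 0.089). The gene that shared the most 50-base words with Lce1c was Lce1b, and for both Lce1b and Lce1d it was Lce1c. Lce1b, Lce1c and Lce1d were all called higher in MD, and their calls may not be separate results.

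Sprr1b, an envelope precursor known to come on in stressed epidermis, was higher in MD by 1.13 ± 0.35 (adjusted p = 0.00892). It had 3 to 59 counts per library, with 0.162, 0.548 and 0.914 CPM in ED (lowest, median, highest) and 0.671, 1.26 and 2.90 in MD. The call held without any one library, and with the basal keratinocyte genes as a covariate the adjusted p was 0.0546. Sprr1a, at far higher counts, gave 0.07 ± 0.16 and did not pass.

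Flg and Hrnr, neighbours on chromosome 3, were both higher in MD. Flg had 25.9, 36.3 and 60.0 CPM in ED and 31.1, 48.8 and 61.9 in MD, and the groups overlapped widely. The difference was 0.43 ± 0.16 (adjusted p = 0.028), and the call was lost without ED ZT12 (adjusted p = 0.111), ED ZT20 (0.0507) or MD ZT16 (0.135). Hrnr had 181, 219 and 292 CPM in ED and 244, 267 and 301 in MD. Its difference was 0.24 ± 0.08 (adjusted p = 0.0287), but only 0.03 on the deposited RPKM values (limma, adjusted p = 0.792), and the call was lost without ED ZT12 (0.0957), ED ZT16 (0.0897) or MD ZT16 (0.141). Flg2, the most abundant of the S100-fused genes, differed by 0.07 ± 0.06 (95% interval -0.06 to 0.20).

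The keratins and the secreted proteins, which hold most of the counts, did not pass between MD and ED. The differences were -0.04 ± 0.07 for Krt10 (95% interval -0.18 to 0.10), 0.11 ± 0.17 for Krt1 (-0.26 to 0.47) and -0.11 ± 0.10 for Krtdap (-0.32 to 0.10). On the deposited RPKM values Krtdap went the other way, from 349 ± 36.4 in ED to 427 ± 35.1 in MD (SD, n = 8 each). Tgm3 gave 0.69 ± 0.28 (adjusted p = 0.0524), with medians of 4.33 CPM in ED and 7.49 in MD. Its highest library was EN ZT0 at 14.5 CPM, which is also the library with the highest hair markers. Its intron counts were higher in MD by 1.22 ± 0.32 (adjusted p = 0.00898). In introns 5 of 26 members tested were called between MD and ED (15.5% of all intron rows were): Tgm3 higher, and Lor, Lce1m, Krt10 and Krtdap lower. Introns took 38.0% to 45.0% of exon and intron counts in MD and 35.1% to 44.1% in ED.

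Genes of several other cell types moved with the MD group. Over all genes tested, 11.2% were called higher and 11.8% lower in MD than in ED. The 6 dermal fibroblast genes summed to 41572 to 69828 CPM in ED, 27058 to 42437 in MD and 40452 to 77024 in EN; 4 of 6 were called lower in MD than in ED. The 5 fat cell genes summed to 1010 to 1498, 604 to 979 and 983 to 2063 CPM, and 5 of 5 were lower. Of the 5 leukocyte genes, which summed to 772 to 1341, 616 to 1046 and 935 to 1318 CPM, 4 were lower. The 5 skeletal muscle genes summed to 6293 to 18799, 9363 to 19137 and 7748 to 18984 CPM, and 4 were higher. The 8 basal keratinocyte genes, Col17a1 and Itgb4 among them, summed to 6986 to 8766, 8136 to 9339 and 6908 to 8579 CPM, and 4 were higher. None of these genes was at 0 counts in all libraries. The other lists did not move one way. Of 6 sebaceous gland genes 2 were called higher and 2 lower, and 0 of 4 melanocyte and 0 of 4 tested hair genes were called. In pooled whole skin, fewer cells of a type and less RNA per cell cannot be told apart. The part of these genes in the results was not tested beyond a fit with the basal keratinocyte genes as a covariate, in which Lor stayed lower and Lce1b, Lce1c, Lce1d, Lce1g and Flg higher, while 4 members lost their calls. Of these, Lce1i (0.39, adjusted p = 0.0806), Sprr1b (1.18, 0.0546) and Hrnr (0.22, 0.145) had differences about as large as without the covariate, and Lce1l had a smaller one (0.27, 0.204). Without the second day, Lce1g (0.063), Lce1i (0.162) and Hrnr (0.089) lost theirs.

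The library names carry a number L1 to L8, whose meaning the labels do not give. It ran with the groups: L1 and L2 held only MD, L4 and L5 only ED, and L7 and L8 only EN. ED and EN met in L6 (ED ZT28, EN ZT0 and ZT4), and MD and EN in none. MD and ED met only in L3 (MD ZT24 and ZT28, ED ZT0), where 9 of the 10 called members kept their direction, among them Lor (-0.49), Lce1d (0.42) and Lce1c (0.30); Lce1g gave -0.06. These values have no test. The L3 libraries are among those that gave the calls, so the agreement in direction is partly built in. Outside L3, the L number and the difference between MD and ED cannot be told apart, nor can the L number and the difference between MD and EN.

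**Figure D4:**
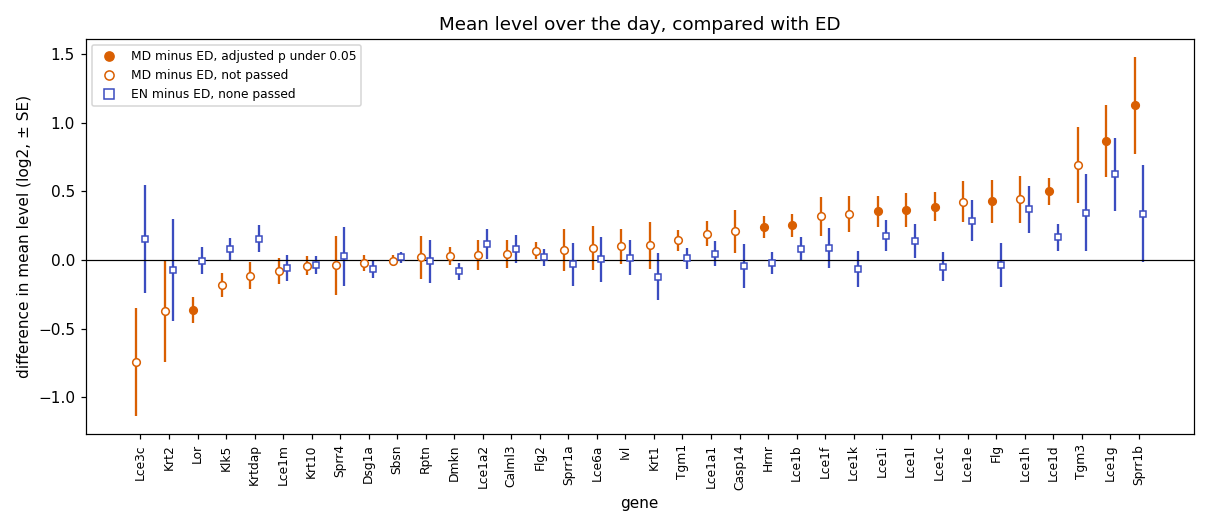
Difference in mean level over the day against ED (log2, estimate ± standard error) for 36 members, in MD (circles, filled where the adjusted p is under 0.05) and EN (squares), 8 libraries per group. Lor is the one filled circle below 0 and Sprr1b the highest, and none of the EN squares passed.

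Between EN and ED, whose meals were 12 h apart, no member passed. The count was 0 of 36 with edgeR (0% of all genes), 1 at an unadjusted p under 0.05 (6.11%) and 0 with DESeq2 (0.0382%). The median difference over the members was 0.02, and 22 of 36 were above 0. Among the 11 members of at least 100 CPM, the largest estimate was 0.15 ± 0.10 for Krtdap, and all 95% intervals lay between -0.49 and 0.36. Lor gave -0.01 ± 0.10 (95% interval -0.21 to 0.20) and Krt10 -0.04 ± 0.07 (-0.18 to 0.11). The 8 EN and 8 ED libraries lay apart for 0 members and for 0.0191% of all genes. In introns, too, 0 of 26 members were called (0% of all intron rows).

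Between EN and MD, 9 of 36 members were called (25.0%, beside 30.2% of all genes), 3 higher in EN (15.9%) and 6 lower (14.4%). The MD pools enter this comparison and that of MD with ED, and the EN pools enter this one and that of EN with ED. Lor was higher in EN than in MD by 0.36 ± 0.10 (adjusted p = 0.00535), and Klk5 by 0.26 ± 0.09 (0.0186). Lce1c was lower by -0.44 ± 0.11 (0.00165), Lce1d by -0.34 ± 0.10 (0.0135) and Lce1k by -0.40 ± 0.13 (0.0422). Sprr1b (-0.79 ± 0.35, 0.0367), Flg (-0.46 ± 0.16, 0.012) and Hrnr (-0.26 ± 0.08, 0.0139) were lower too. Krtdap was higher in EN by 0.27 ± 0.10 in counts (0.0331) but lower by -0.32 on the deposited RPKM values (limma, adjusted p = 0.00823). For no member did the groups lie wholly apart, as they did for 4.24% of all genes.

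The calls of Lor, Lce1c and Lce1d between EN and MD held without any one of the 24 libraries. On the deposited RPKM values Lor (0.21), Lce1c (-0.74), Lce1d (-0.61) and Lce1k (-0.60) kept their calls at sizes over 1.5 times apart from the above, while Hrnr (-0.01) and Klk5 (0.07) lost theirs; between MD and ED this held for Lce1b (0.44), Lce1g (0.54) and Sprr1b (0.72), which kept theirs. Klk5 was lost without MD ZT12 (adjusted p = 0.0872) or EN ZT12 (0.0816), Flg without MD ZT16 (0.0666) and Hrnr without MD ZT16 (0.0761) or EN ZT12 (0.087). Krtdap and Sprr1b were each lost without any of 8 single libraries (up to 0.116 and 0.175), and Lce1k without any of 11 (up to 0.113). With the basal keratinocyte covariate 5 members lost their calls. Lce1c (-0.43, adjusted p = 0.0502), Sprr1b (-0.86, 0.194), Hrnr (-0.24, 0.164) and Klk5 (0.27, 0.136) kept differences of about the same size, and that of Krtdap came to 0.07 (0.718). Without the second day Lce1k (0.0514), Sprr1b (0.0832) and Krtdap (0.141) lost theirs. Without the filter on low counts Lce1k lost its call (0.0728). In introns 8 of 26 members were called, beside 14.7% of all intron rows, and all were higher in EN. Lor (0.75 ± 0.12), Krt10 (0.54 ± 0.08), Flg2 (0.36 ± 0.10) and Ivl (0.85 ± 0.18) were among them.

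The third question was whether the genes differ between the hours after a meal and the hours before the next. The 7 libraries taken 3 to 8 h after food opened were compared with the 9 taken 19 to 24 h after it, with feeding group and clock time in the model. Of 36 members, 1 was called, Krt1, beside 4.85% of all genes (2.39% higher, 2.46% lower), and 6 stood at an unadjusted p under 0.05 (22% of all genes did). DESeq2 called 1 member (7.16% of all genes). The median difference was -0.06 over the members and 0.00 over all genes.

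Krt1 (uc007xuc.1; chromosome 15, 101845426 to 101850794, minus strand), the type II keratin of the spinous layer, was higher after food. After food its levels were 609, 704 and 794 CPM in ED (ZT4, ZT8 and ZT28), 907 and 761 in MD (ZT8 and ZT12) and 580 and 634 in EN (ZT16 and ZT20). Before food the lowest, median and highest levels were 365, 500 and 608 CPM. In the libraries between these classes they were 454, 606 and 689 CPM. The highest EN pool was 1 of these, ZT28 (664 CPM), taken 16 h after food opened. The libraries of ED ZT0, ED ZT24 and EN ZT12, all taken 24 h after food last opened, were the lowest of the 24 together with the MD and EN pools of ZT0. The after and before classes overlapped only between 580 and 608 CPM. The difference was 0.45 ± 0.12 (95% interval 0.19 to 0.70; edgeR adjusted p = 0.0233). Without the clock time in the model, the mean of the after libraries was above that of the before libraries in each group, by 0.66 in ED, 0.63 in MD and 0.37 in EN. In EN this rested on ZT12 (365 CPM), as ZT8 (602 CPM), also before food, lay between the pools after food. Within a group, hours since food opened go with clock time, so clock and meal are mixed in the differences of ED, MD and EN alike. In ED, ZT0 and ZT24 also share a clock time.

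Intron counts of Krt1 gave a like difference, 0.50 ± 0.16 (adjusted p = 0.0378; 2 of 26 members called, beside 8.51% of all intron rows), with means of 40.9 ± 7.89 CPM after food and 26.5 ± 5.12 before (SD, n = 7 and 9). The other intron call was Tgm3, lower after food (-0.91 ± 0.31, adjusted p = 0.0472). Its intron level was 9.14 CPM in EN ZT12, a library before food, and at most 5.01 CPM in the other 23. In MD the Tgm3 intron levels after food (4.56 and 3.88 CPM) lay within those before it (2.64 to 5.01 CPM). Krt10, the type I partner with which KRT1 forms filaments, ran from 2484 to 2743 CPM after food and from 2025 to 2750 before, and its difference was 0.04 ± 0.06 (95% interval -0.09 to 0.18). The ratio of Krt1 to Krt10 CPM had a median of 0.263 after food, 0.229 in between and 0.206 before. The call of Krt1 was lost without any one of ED ZT28 (adjusted p = 0.0782), MD ZT4 (0.06), MD ZT12 (0.0916), EN ZT12 (0.0938) and EN ZT20 (0.0504), with estimates of 0.36 to 0.47. As a cosine by hours since food opened, Krt1 gave an amplitude of 0.18 ± 0.10, which did not pass (adjusted p = 0.507). The basal keratinocyte genes summed to 7808 to 9339 CPM after food and 6986 to 9212 before, and the call of Krt1 held with them as a covariate.

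**Figure D5:**
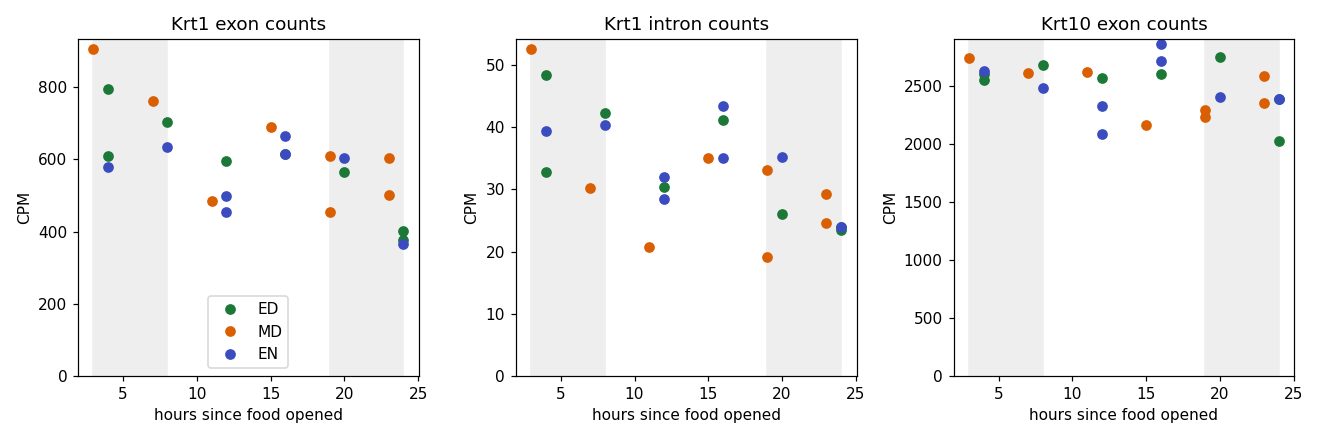
Krt1 exon counts, Krt1 intron counts and Krt10 exon counts (CPM) against hours since food opened, 1 point per library, coloured by feeding group; grey bands mark the after (3 to 8 h) and before (19 to 24 h) classes. Krt1 exon points run from 580 to 907 CPM in the first band and from 365 to 608 in the last, and Krt10 stays between 2025 and 2865 CPM.

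Genes that work with the envelope were counted from lists, to be read against the 11.2% of all genes called higher and the 11.8% called lower in MD than in ED. Of 19 genes of barrier lipid synthesis, 2 were higher in MD than in ED and 0 lower: Aloxe3 (0.33 ± 0.07) and Alox12b (0.25 ± 0.09), the lipoxygenases that prepare the lipid coat of the envelope. Of 12 genes of upper layer junctions, 1 was higher, Ppl (periplakin, 0.27 ± 0.07). Of 11 upper layer proteases and inhibitors, 3 were lower in MD: Klk8 (-0.59 ± 0.11), Cst6 (-0.33 ± 0.14) and Blmh, the hydrolase that breaks filaggrin down to amino acids (-0.17 ± 0.06). Of 7 other genes of the epidermal differentiation complex, Kprp was higher (0.51 ± 0.11) and Crct1 (-0.26 ± 0.09), S100a14 (-0.35 ± 0.09) and S100a16 (-0.38 ± 0.12) were lower. Of 16 regulators of differentiation, Trp63, which keeps the basal layer, and Notch1, which drives cells out of it, were higher (0.26 ± 0.06 and 0.39 ± 0.11) and Cebpa was lower (-0.35 ± 0.07). Blmh, Kprp, S100a16 and Notch1 were named after their values were seen.

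In EN against MD, where 15.9% of all genes were called higher and 14.4% lower, the same lists gave 2 higher and 5 lower for barrier lipids, 1 and 4 for junctions, 5 and 0 for proteases and inhibitors, 3 and 1 for the complex and 2 and 7 for regulators. In none of these 5 lists was a member called rhythmic in any group, by edgeR. In EN against MD, Dsc1 (desmocollin-1, a desmosomal cadherin of the upper layers) was lower by -0.27 ± 0.08 and Crct1 higher by 0.52 ± 0.09. After food, 1 of 12 junction genes was called, Cldn1 (claudin-1, of the tight junctions), lower by -0.33 ± 0.09. Of 11 proteases and inhibitors 1 was called, Klk10, lower by -0.36 ± 0.11. Barrier lipids, the complex and regulators had 0 calls. Beside this, 4.85% of all genes were called and 2.46% were lower. Of 3 stress keratins tested, 1 was called rhythmic in EN (1.06% of all genes were). It was Krt6a (amplitude 0.47 ± 0.11, peak ZT 14.2, edgeR adjusted p = 0.0309). In ED and in MD 0 of 3 were called, and 0 had a rhythm that differed between groups by ZT.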

How the data were processed

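The deposited counts are raw whole numbers, with exon, intron and antisense rows for every gene model, per the file headers. The submitters' processing notes name TopHat2, SAMtools, HOMER and mm10 but no version; which program counted the reads was not stated there. The deposited RPKM were made by the authors with cqn, per the file name, and have the same maximum in every library; they were used for levels per length and 1 alternative. RNA with an integrity number above 6.5 was pooled, and the kit marks strand, per the labels. Members and lists were chosen with earlier results of these data known.

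Of 31872 models, 1 row per symbol was kept (29758; 2114 rows left out), and 0 columns belonged to no sample. filterByExpr by group (minimum count 10, total 15) kept 15719 genes. edgeR 4.0.16 in R 4.3.3 (TMM, quasi-likelihood F test, Benjamini-Hochberg adjustment, threshold 0.05) was fitted to all 24 libraries: mean, cosine and sine (24 h) per group (15 residual degrees of freedom), the shared rhythms with 1 cosine and sine (19), and the food classes with group and clock time (14). ED ZT0 and ZT24 were counted as 24 h since food opened. Estimates and standard errors are least squares on log2 CPM (prior count 2). Alternatives were RLE factors, DESeq2 1.42.0, limma 3.58.1 on log2(RPKM + 0.5), no filter, the second day left out, ED ZT24 and EN ZT0 left out, a basal keratinocyte covariate, a block for sampling time, a group fitted alone and each library left out. The tests were tried on simulated counts. Sampling times did not pair the libraries: between groups, the correlation of deviations at the same time ran from -0.15 to 0.24.

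Named were members called in any test, the 2 highest per length in each role, the 6 widest in log2 CPM, and of each other list the 2 with the smallest adjusted p in any test; further names were chosen after their values were seen, as were the sums of Lce1 genes and the intron fit of Krt1. The genes of the 8 lists of cell types are not all named in the text. In MD against ED, sebaceous gland gave 2 of 6 higher and 2 lower, melanocyte 0 of 4 and growing hair 0 of 4 tested. Antisense rows are used only among the flagged results.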

Additional observations from a re-analysis of the deposited data

Results flagged for a closer look

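In 84 checks (28 named members in 3 groups of 8 libraries), 3 groups had a library farther from its nearest neighbour than Dixon's 95% limit allows; chance gives about 1 in 20. Ivl in MD was 119 CPM at ZT16 and at most 80.5 in the other MD libraries. Lce1k in EN was 3.38 CPM at ZT12, next to 2.20. Sprr1a in EN was 102 CPM at ZT0, next to 56.0, in the library with the highest hair markers (2742 CPM); the part of those in it was not tested.

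The antisense rows, which no comparison used, held more than 3 counts in each of the 24 libraries for 6 members: Dmkn, Krt10, Flg2, Sbsn, Ivl and Tgm3. Tgm3 had 282 antisense counts, 11.01 per 100 exon counts, and Ivl had 564, or 1.86 per 100. Dmkn had 1464, which is 0.275 per 100, and Krt10 1009, 0.0946 per 100.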

How the results depend on the processing

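RLE factors and leaving out ED ZT24 and EN ZT0 changed none of the 21 calls of single members, nor did DESeq2. Counts of called members moved as follows. For rhythm in MD (1) the count was 2 without the filter, 2 with the basal keratinocyte covariate, 2 with DESeq2, 0 with MD fitted alone and 0 to 2 leaving out single libraries (0 without MD ZT4, ZT12, ZT16 or ZT28, 2 without MD ZT24). For the difference in rhythm by ZT (0) it was 2 with the covariate, 2 with DESeq2, 1 with limma on RPKM and 0 to 1 leaving out single libraries (1 without ED ZT0). For the shared food rhythm (0) it was 1 with the covariate. For MD minus ED (10) it was 16 with limma on RPKM and 5 to 13 leaving out single libraries (5 without ED ZT20). For EN minus MD (9) it was 15 with limma on RPKM and 5 to 10 leaving out single libraries (5 without EN ZT12). For the food contrast (1) it was 2 with the covariate, 2 with limma on RPKM and 0 to 1 leaving out single libraries. Krtdap in EN minus MD turned to -0.32 on the RPKM values. The causes were not tested. Without the second day, 7 of 21 calls of single members were lost. A replicate block for sampling time, whose numbers do not pair the libraries, gave 1 member with a different rhythm by ZT, 11 for MD minus ED, 9 for EN minus MD and 0 for EN minus ED, and changed none of the 19 calls of single members it could be run for. Members with a few counts per library, Lce1g, Sprr1b and Krt2 among them, are limited by depth.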

Other observations

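Genes of other cell types and of the clock were measured beside the envelope genes, and those with the smallest adjusted p in each list are given here (edgeR's quasi-likelihood test, Benjamini-Hochberg adjustment). In EN against MD the dermal matrix genes Lum (0.84 ± 0.11) and Col1a1 (0.90 ± 0.16), the fat cell genes Fabp4 (0.86 ± 0.11) and Adipoq (1.07 ± 0.15) and the leukocyte genes Lyz2 (0.55 ± 0.13) and Cd74 (0.47 ± 0.10) were higher. The hemidesmosome genes Itgb4 (-0.44 ± 0.10) and Col17a1 (-0.35 ± 0.06) were lower. Of the sebaceous list, Mgst1 was higher (0.47 ± 0.10) and Krt79 lower (-0.31 ± 0.04), and the melanocyte gene Mlana was higher (0.92 ± 0.26). Tyrp1 was called in no test, with an adjusted p of 0.147 at the lowest. The muscle genes Tnnt3 (0.83 ± 0.17) and Myh4 (0.71 ± 0.22) were higher in MD than in ED. The clock genes Per3 and Dbp had rhythms that departed from a shared food rhythm (adjusted p = 3.12e-11 and 4.28e-11). Of the 10 clock genes tested, 9 departed from a shared ZT rhythm (0.999% of all genes did). All 10 departed from a shared food rhythm (1.32% of all genes did). The hair sheath keratins Krt27 (0.0269) and Krt71 (0.032) passed the same test, with EN levels of 42.3 ± 118 and 86.1 ± 241 CPM (SD, n = 8), and the hair markers as a sum stood out in 1 EN library (ZT0) and 1 ED library (ZT24) alone. The stress keratin Krt17 gave 0.20 ± 0.09 in EN against MD and did not pass (0.107).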
